A study of Mus musculus with 23 samples.

Results

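The epiblast, the embryonic tissue that gives rise to the fetus, was examined for CpG methylation that differed between the maternal and the paternal allele at E7.5. The members were the 4 epiblast libraries of this stage, of 23 libraries in the series, with 4 libraries of extra-embryonic ectoderm (ExE), the trophoblast tissue next to it, for comparison. They were wild type and came from single embryos of reciprocal natural matings between C57BL6/Babr (B6) and CAST/Ei (CAST) mice, with 2 libraries from B6 mothers (B6/CAST) and 2 from CAST mothers (CAST/B6). Whole-genome methylation was measured by post-bisulphite adaptor tagging (PBAT), in which unmethylated cytosines are converted before the adaptors are added, and reads were assigned to an allele through strain SNPs. The bisulphite conversion of the E7.5 samples was carried out a second time after a poor first conversion, so that methylation includes any cytosines left unconverted. For a later comparison at E6.5, 3 B6/CAST, 3 CAST/B6 and 2 matDKO/CAST epiblast libraries were used, each from the input aliquot of chromatin from pooled epiblasts. The matDKO mothers carried floxed Dnmt3a and Dnmt3b with Zp3-cre, which is active in oocytes, on a mixed B6 and 129 background, and were mated to CAST males. Their embryos were Dnmt3a -/+ and Dnmt3b -/+ themselves, so that matDKO/CAST and B6/CAST differ in the embryo's genotype and in the 129 alleles as well as in the oocyte.

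An imprinted gene is expressed from the allele of 1 parent. At most imprinted loci the choice is set by a germline differentially methylated region (gDMR), which is methylated in the oocyte or in the sperm and keeps its methylation on that allele alone after fertilisation, when most of the genome is reprogrammed. Secondary differentially methylated regions gain their methylation on 1 allele only after fertilisation, under the control of a gDMR nearby. Many gDMRs hold the hexamer TGCCGC, which the zinc finger protein ZFP57 binds when its CpG is methylated, and ZFP57 with its partner TRIM28 protects these regions in the early embryo.

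The value of a window is the percentage of methylation over a run of neighbouring CpG positions, and the parental difference is the maternal minus the paternal value within 1 library, in percentage points. Both alleles had a value in all 4 libraries in 238529 of the autosomal windows, which is 62.1% of those in the table. A window was listed when the parental difference was at least 30 points with the same sign in each library, and windows within 50 kb of each other were joined into a locus. This gave 30 windows at 16 loci, or 0.0126% of the windows, with 19 windows higher on the maternal allele (0.00797%) and 11 higher on the paternal allele (0.00461%). The same rule applied to the B6 minus the CAST allele gave 15 windows (0.00629%). All 30 windows lay within 500 kb of a gene of the imprinted lists, as did 3.62% of all tested windows, and 14 of the 15 strain windows did not.

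The sequences that follow show where copies of the hexamer lie in lead windows, a lead window being the one with the largest mean difference of its locus. They are stretches of 120 bases of the plus strand of GRCm38 from RefSeq. Each is the stretch with most copies of TGCCGC on either strand among those that overlap no annotated UTR. The copies, written TGCCGC or GCGGCA, are in capitals. Only stretches with 2 or 3 copies are shown. Those of Zdbf2, Peg10, Snrpn, Slc38a4 and Airn had 1 copy, and those of Kcnq1ot1 and Cdkn1c had 0. The first 5 come from maternally methylated windows, and those of H19 and Meg3 from paternally methylated ones.

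Peg3 (chr7:6729666-6729785): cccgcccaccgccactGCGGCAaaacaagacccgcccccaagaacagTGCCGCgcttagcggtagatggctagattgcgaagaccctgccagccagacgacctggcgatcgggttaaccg

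Inpp5f (chr7:128687930-128688049): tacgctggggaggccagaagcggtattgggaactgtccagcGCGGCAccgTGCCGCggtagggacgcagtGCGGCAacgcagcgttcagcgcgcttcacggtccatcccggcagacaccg

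Gnas (chr2:174299586-174299705): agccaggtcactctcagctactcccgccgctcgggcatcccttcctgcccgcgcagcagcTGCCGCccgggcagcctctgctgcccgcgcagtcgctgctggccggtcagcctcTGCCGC

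Mest (chr6:30737576-30737695): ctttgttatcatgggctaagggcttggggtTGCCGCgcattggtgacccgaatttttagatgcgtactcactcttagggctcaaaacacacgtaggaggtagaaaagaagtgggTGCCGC

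Peg13 (chr15:72809938-72810057): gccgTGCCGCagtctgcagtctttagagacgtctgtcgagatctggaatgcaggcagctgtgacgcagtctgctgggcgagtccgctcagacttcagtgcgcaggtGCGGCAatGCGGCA

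H19 (chr7:142581753-142581872): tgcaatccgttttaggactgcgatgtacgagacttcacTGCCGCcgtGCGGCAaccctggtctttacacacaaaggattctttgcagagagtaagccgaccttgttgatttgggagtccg

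Meg3 (chr12:109528247-109528366): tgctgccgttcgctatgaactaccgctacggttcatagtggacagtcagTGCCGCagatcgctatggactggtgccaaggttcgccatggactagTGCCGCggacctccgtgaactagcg

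The hexamer was present on either strand in 17 of the 19 maternal windows and in 7 of the 11 paternal windows. It was found in 34.0% of the tested windows that were no longer than the longest of the 30. Among windows under 2200 bases, 20 of 24 listed windows held it (83.3%), against 41.6% of all tested windows of that length. The Peg3 lead window had 6 copies in 884 bases, the Gnas lead window 5 in 658 bases and the Inpp5f window 4 in 1337 bases. The lead windows of Kcnq1ot1 and Zrsr1 had none, and these were among the 4 loci with the largest differences, together with Gnas and Peg10. The second Kcnq1ot1 window had 3.

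The listed windows held their CpG positions in shorter stretches, with a median length of 1503 bases against 5049 for all tested windows. On the methylated allele of the maternal windows the mean over the 4 libraries ran from 76.3% to 97.4% with a median of 93.6%. On the other allele it ran from 1.08% to 36.1% with a median of 4.07%, and it was under 5% in 10 of the 19. In the paternal windows the methylated allele had a median of 84.5% and the other a median of 8.67%, with 3 of 11 under 5%. The median difference was 84.6 points in the maternal windows and -75.2 points in the paternal windows. Over all tested windows, which go both ways, the median was -0.0572. The listed windows were chosen for at least 30 points in these same libraries, so that this contrast was set by the rule and is given as a description.

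**Figure D1:**
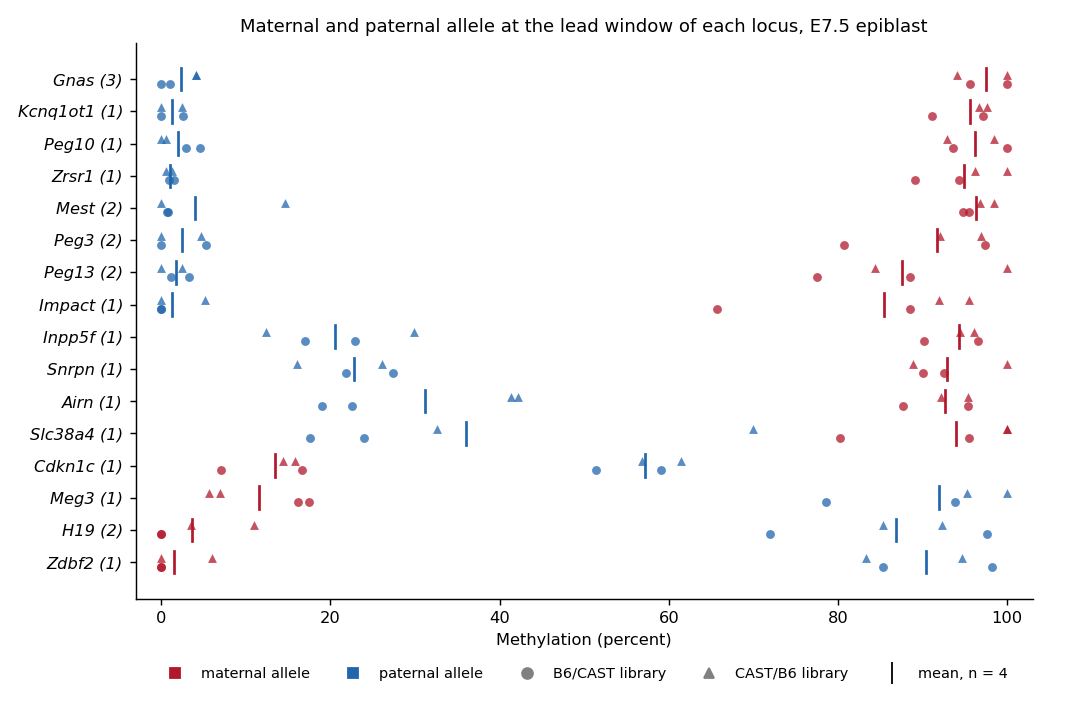
Methylation in percent (horizontal axis) of the maternal (red) and paternal (blue) allele in each of the 4 E7.5 epiblast libraries, for the lead window of the 16 loci, with the number of the window in its locus in brackets. Circles are B6/CAST and triangles CAST/B6 libraries, and bars are means (n = 4). The alleles do not overlap at any of these loci, which the choice of windows favours. The paternal allele of Inpp5f, Snrpn, Airn and Slc38a4 has means of 20.6% to 36.1%.

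At 11 of the 16 loci only the maternal allele was the higher one. Kcnq1ot1 is a paternally expressed long non-coding RNA that starts inside an intron of Kcnq1 and silences neighbouring genes in cis. Its lead window (chr7:143293438-143295636, in the exon of Kcnq1ot1, 913 bases from its start) had maternal values of 91.2% and 97.1% in B6/CAST and 97.6% and 96.6% in CAST/B6. The paternal values were 2.54%, 0%, 2.5% and 0% in the same order. The difference was 94.4 ± 3.93 points (SD, n = 4), and both crosses had nearly complete separation of the alleles.

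Peg10 is a retrotransposon-derived gene needed for the placenta and shares a promoter region with Sgce. In its window (chr6:4748026-4748717, intronic, 620 bases from the nearest start) the maternal values were 93.5%, 100%, 98.4% and 92.9%, and the paternal values 4.65%, 2.94%, 0% and 0.575%. Zrsr1, a gene related to splicing factors that lies within an intron of Commd1, had 89.1% to 100% on the maternal and 0.538% to 1.57% on the paternal allele in a window over its exon (chr11:22972112-22972749). The differences were 94.2 ± 4.38 points at Peg10 and 93.8 ± 4.71 points at Zrsr1 (SD, n = 4), next in size to Gnas and Kcnq1ot1. The mean of the 2 alleles was above the value of all reads together by 31.2 points at Peg10 and by 13.4 at Zrsr1. At other listed windows this gap was 17.2 points at Gnas window 4, 16.4 and 12.7 at Meg3 windows 1 and 2, and 10.2 at Cdkn1c. The allelic values rest on the reads that cover a SNP, and the part of this in the differences was not tested.

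Mest, a paternally expressed gene of the hydrolase fold family, had 3 listed windows within 7442 bases. The second, intronic, and the third, with an exon, differed by 92.3 ± 7.08 and 84.6 ± 2.70 points. The first, 60.5 ± 21.6 points, was the least even of all 30, with 37.0 and 86.1 points in the 2 B6/CAST libraries and 69.1 and 50 in CAST/B6. Peg3, which encodes a zinc finger protein expressed from the paternal allele, had 2 adjoining intronic windows with 75.1 ± 6.76 and 89.2 ± 5.68 points. Peg13, a non-coding RNA in an intron of Trappc9, had 2 with 66.0 ± 8.52 and 85.8 ± 10.8 points. Impact, known as an inhibitor of the kinase GCN2, differed by 84.1 ± 12.4 points in a window that holds its transcript start.

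At the lead windows of 4 further maternal loci the paternal allele averaged over 20%. Inpp5f, a phosphatase gene with an internal imprinted promoter, had 90.1% to 96.5% on the maternal and 12.4% to 29.9% on the paternal allele. Snrpn, of the domain deleted in Prader-Willi syndrome, had 88.9% to 100% and 16.1% to 27.4% in a window of 8045 bases that ends 731 bases from the annotated start. In the window at Airn, the antisense RNA that represses Igf2r, the paternal allele had 22.5% and 19% in B6/CAST but 41.3% and 42.1% in CAST/B6. The crosses did not overlap there, and the part of the difference that followed the strain was 9.32 points (unadjusted p = 0.0597, adjusted p = 0.755, limma). Of the 30 windows, 8 had crosses that did not overlap, against 36.1% of all windows, and the strain part was larger at 2 of them, with 11.8 points at Zdbf2 window 4 (unadjusted p = 0.0333, adjusted p = 0.748, limma) and 11 points at Meg3 window 1 (unadjusted p = 0.0537, adjusted p = 0.754, limma). Slc38a4, an amino acid transporter gene, had paternal values of 24%, 17.6%, 70% and 32.6%, so that 1 CAST/B6 library stood alone with a difference of 30 points.

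The neighbouring windows of 2 of these loci, where 1 library lacked an allele, were more separated. The window with most Snrpn and Snurf starts had 90.6, 87.8 and 90.6 points in the 3 libraries with both alleles, and the window next to the listed one at Slc38a4 had 92.4, 90.6 and 86.8 points. In these the paternal allele averaged 1.97% at Snrpn and 3.52% at Slc38a4.

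The Gnas domain had listed windows of both directions. Gnas encodes the stimulatory G protein alpha subunit and has several promoters with different imprints, and Nespas is transcribed antisense to it. The window at the upstream end (chr2:174285373-174286218, holding a start of Nespas and exons of Gnas) was methylated on the paternal allele, with 78.0%, 100%, 71.9% and 92.3% against 7.69%, 0%, 7.69% and 0% on the maternal allele. The next 2 windows, in exons of Gnas, were methylated on the maternal allele, with differences of 65.5 ± 11 and 95.1 ± 4.14 points. The 95.1 points were the largest of all tested windows. The last window (chr2:174327443-174327987), which holds starts of Gnas and ends the run of 42615 bases, had 95.2, 92.7, 90.9 and 87.0 points, again with the maternal allele higher.

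The paternally methylated loci were H19, Meg3, Zdbf2 and Cdkn1c. H19 is a maternally expressed non-coding RNA, and the region upstream of it controls H19 and Igf2 through the insulator protein CTCF. The 2 listed windows lay 62 and 2218 bases upstream of the annotated H19 start. In the farther one (chr7:142580361-142582087) the paternal values were 97.6%, 72.0%, 92.3% and 85.3%, and the maternal values 0%, 0%, 10.9% and 3.57%. The nearer one had a maternal mean of 19.2% ± 8.53 and a difference of -66.6 ± 9.52 points (SD, n = 4).

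Meg3 is a maternally expressed non-coding RNA of the domain that also holds Dlk1 and Rtl1. Its 3 listed windows lay 6846 to 12622 bases upstream of its start, in the interval between Dlk1 and Meg3 that carries the paternal gDMR. Their differences were -80.3 ± 14.4, -79.1 ± 9.21 and -51.0 ± 9.05 points in order towards Meg3. The window that holds the Meg3 start had both alleles in 3 libraries only, with -82.3, -69.8 and -81.3 points.

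Zdbf2 is a paternally expressed gene on chromosome 1, and the region upstream of it is known to gain methylation on the paternal allele after implantation. A run of 3 adjoining windows that began at chr1:63259682 had differences of -88.9 ± 9.40, -75.2 ± 9.42 and -68.3 ± 12.6 points. The fourth, over Zdbf2 exons, had -49.4 ± 14.6 points with 27.5% ± 11.5 on the maternal allele. The 2 windows just before the run had both alleles in 3 libraries and differed by 50.8 to 91.2 points in each of them, also with the paternal allele higher. Gpr1, which lies on the other side and is counted among the maternal gDMRs, had no listed window, and its most different window had 7.77 to 38.7 points.

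Cdkn1c encodes an inhibitor of cyclin-dependent kinases and is expressed from the maternal allele. The listed window (chr7:143463663-143465056) lay 2613 bases from its nearest start. Its differences were -42.5 and -44.3 points in B6/CAST and -45.7 and -42.4 points in CAST/B6, the most even of the 30. The paternal allele was at 51.5% to 61.5% and the maternal allele at 7.14% to 16.7%, so that neither was close to the extremes seen at the gDMRs.

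**Figure D2:**
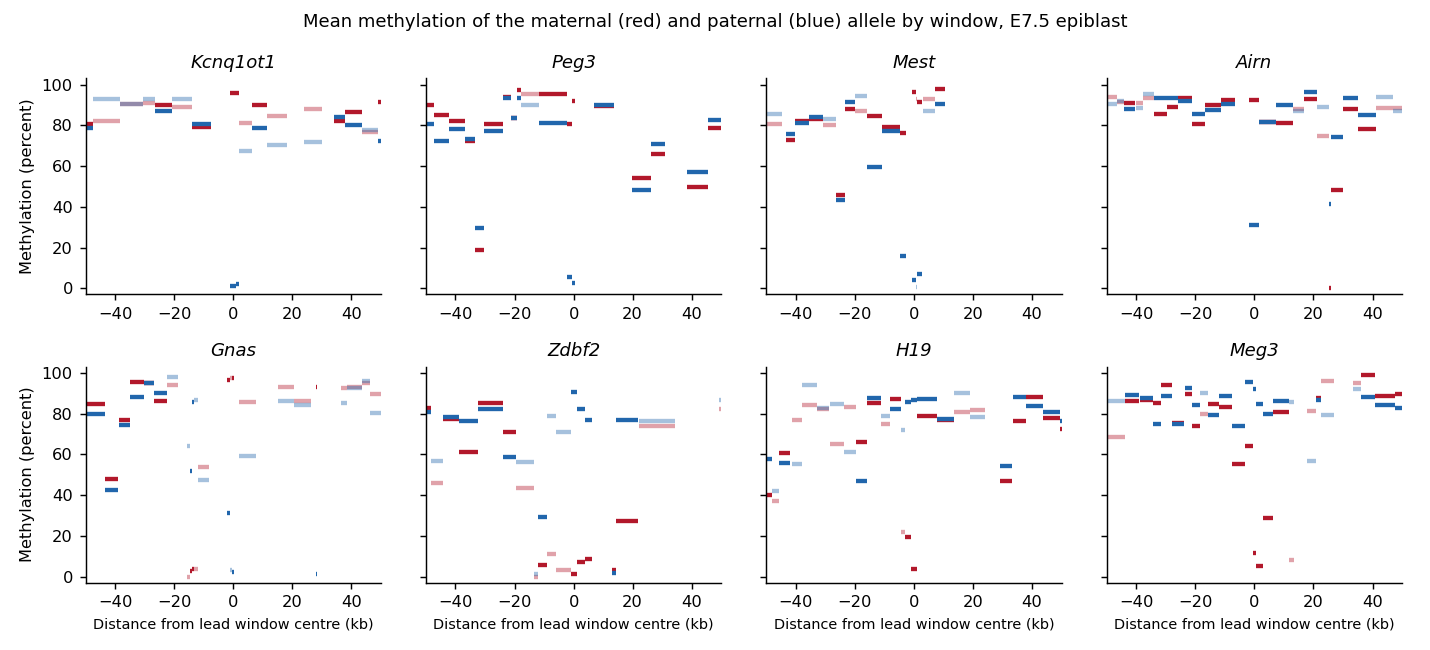
Mean methylation in percent of the maternal (red) and paternal (blue) allele of each window against its distance in kb from the centre of the lead window, at 8 loci of the E7.5 epiblast. Segments span the window, full colour marks windows with both alleles in 4 libraries and pale colour those with both in 2 or 3. At Kcnq1ot1 the paternal allele is at 1.26% in the lead window, and at Gnas, Zdbf2, H19 and Meg3 the allele that is low is the maternal one in at least 1 window.

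Beyond 25 kb from the lead window the alleles were close at most loci. In the windows with all 4 libraries between 25 and 100 kb away, the mean absolute difference per locus ran from 3.70 points at Peg13 to 10.6 points at Meg3. The mean of 8.70 points at Gnas includes listed window 4, which lies beyond 25 kb from the lead window, and was 5.10 points without it. At Kcnq1ot1 the maternal allele averaged 84.6% and the paternal allele 76.8% over 13 such windows. At Airn the largest of them was the window of 405 bases that holds the Igf2r promoter (chr17:12769502-12769906), with 0.379% on the maternal and 41.5% on the paternal allele. Its differences were -18.2, -50, -46.6 and -49.7 points, so that 1 B6/CAST library kept it under the rule. Near Meg3 a window 2144 bases from a start of Rian (chr12:109614903-109618183) was higher on the maternal allele, by 27.4, 33.6, 44.1 and 44.6 points.

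The single windows were tested with limma on the 4 parental differences, with the cross as a term. The adjusted p was under 0.05 at 20 windows of 13 loci (0.00838%), 15 with the maternal allele higher (0.00629%) and 5 with the paternal allele higher (0.0021%). All 20 were among the 30 listed windows. The lowest adjusted p was 0.0140, at Gnas (windows 3 and 4), Peg10, Kcnq1ot1 (window 1) and Zrsr1 (limma). The largest differences that did not pass were at Gnas window 1 (-81.7 points, SE 6.99, adjusted p = 0.156, limma) and Snrpn (70.0 points, SE 4.99, adjusted p = 0.0556, limma). For the B6 minus the CAST allele limma gave 0 windows (0%), with an unadjusted p under 0.05 at 15868. The parental test had 11608 such windows. No window passed with the trend and robust settings of eBayes (4131 at an unadjusted p under 0.05), in which the trend is taken over the mean difference itself. None passed with any 1 library left out (7510 to 14332 at an unadjusted p under 0.05). With the replicate number as a block limma called 17 windows, 16 of them among the 20, and Gnas window 1 then passed.

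**Figure D3:**
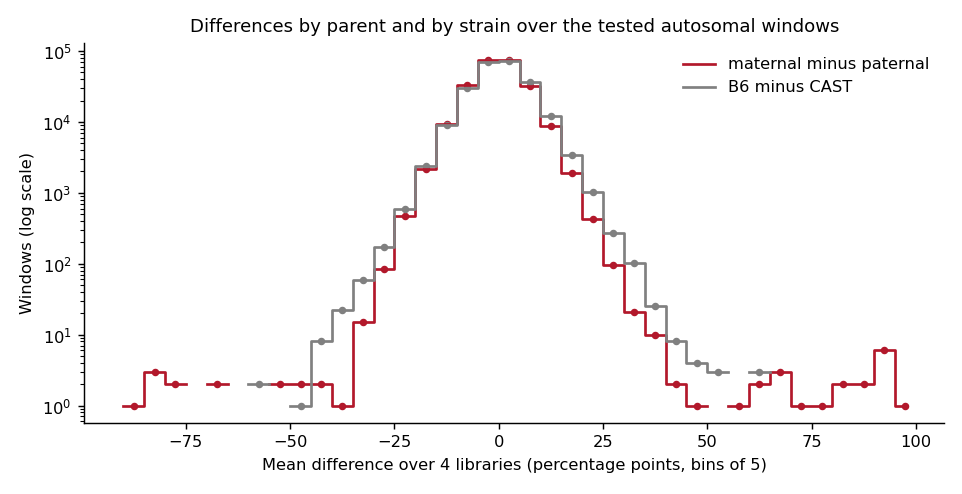
Number of autosomal windows (vertical axis, log scale) by mean difference over the 4 E7.5 epiblast libraries in bins of 5 percentage points, for the maternal minus the paternal allele (red) and the B6 minus the CAST allele (grey). In the middle the grey line is the wider one, with 239 windows of at least 30 points against 83, while beyond 60 points there are 26 red windows and 3 grey ones.

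Over all tested windows the mean differences of the 2 crosses had opposite signs. The mean parental difference over the tested windows was 0.439 and 0.442 points in B6/CAST and -0.645 and -0.580 points in CAST/B6, and averaged -0.0862 ± 0.608 points (SD, n = 4). The average turned to 0.100 points without CAST/B6 replicate 1 and to 0.0784 without CAST/B6 replicate 2. In single libraries the sign followed the strain of the allele, with B6 higher than CAST by 0.526 points on average. The two-sided exact sign-flip test of the parental mean gave p = 0.75, where the smallest p that 4 libraries allow is 0.13. Single windows in single libraries varied far more than this: the SD over windows was 10.9 to 13.6 points, and 1.38% to 3.70% of windows reached 30 points in a given library.

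The search was widened for loci not known as imprinted, by lowering the minimum to 20 points in each library. This gave 50 windows (0.021%), of which 16 lay more than 500 kb from every gene of the imprinted lists, 8 with the maternal and 8 with the paternal allele higher. The same minimum gave 130 windows for the strain (0.0545%), 124 of them that far from listed genes. None of the 16 passed limma, and none reached 20 points in all 4 ExE libraries.

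Of the 16, the 2 with the largest means were at Brpf1, a chromatin reader, with 28, 39.9, 52.5 and 25.8 points, and in an intron of Msrb3, a methionine sulphoxide reductase (chr10:120867339-120870645), with 44.3, 22.6, 40.4 and 38.5 points. Of the 16, 2 had 1 sign in all 8 libraries, Msrb3 and Stx5a, where 6.86% of all windows had the epiblast sign in every ExE library, so that the count is no result about these windows. Of the other 14, 2 were opposite in sign in all 4 ExE libraries, against 5.92% of all windows. Msrb3 had 32.4, 23.2, 36.0 and 10.9 points in ExE, and its alleles were at 84.9% and 48.4% in the epiblast. Stx5a, a syntaxin of the Golgi (chr19:8742267-8748338), had -28.9 ± 5.47 points in the epiblast and -1.11 to -31.9 in ExE. At Brpf1 the ExE libraries had -26.1 to 13.1 points. Its epiblast alleles averaged 77.3% and 40.7%, both above the 30.9% of all reads together. At 1700112J16Rik, also of the 16, the alleles averaged 32.5% and 60.8% against 25.6%. The part of these gaps in the differences was not tested. A window 85 bases from the start of Gmnn, the gene of the replication inhibitor geminin (chr13:24762008-24764839), was not among the 16, since it lies 284631 bases from the listed gene Cmah. It had 42.0, 44.9, 36.7 and 25.6 points in the epiblast (adjusted p = 0.754, limma) and -9.65 to 17.4 in ExE, and is named here after its values were seen.

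Every gene of the gDMR lists was then looked up. Of the 20 genes of maternal gDMRs, 13 had a listed window within 5 kb, with Nespas and Gnas sharing theirs. Those without were Gpr1, Mcts2, Nnat, Nap1l5, Cdh15, Plagl1 and Grb10. At Nnat no window had both alleles in any library. At Plagl1 the window next to the start had both in 2 libraries, with 89.8 and 94.8 points. An intronic window 234 bases from that start (chr10:13086357-13090457) had both in all 4, with 14.5, 31.2, 38.1 and 59.5 points, so that 1 B6/CAST library kept it under the rule. The start window of Grb10 had both in none of the epiblast libraries but 78.1 to 84.1 points in the 4 ExE libraries. The start windows of Nnat, Plagl1 and Grb10 were at 52.9%, 45.4% and 48.2% with both alleles together. Mcts2, a retrogene within H13, had both alleles in 3 libraries, with 14.6 points at the lowest and 94.4 at the highest, and Cdh15, a cadherin gene, had 61.8, 41.2, 61.1 and 15.6 points in an internal exon. Nap1l5 had both alleles in 1 library at its start, with 3.73 points.

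Of the 3 paternal gDMRs, those of H19 and Meg3 are described above. Upstream of Rasgrf1, a guanine nucleotide exchange factor, 3 adjoining windows 26002 to 31309 bases from its start had both alleles in 3 libraries each. The middle one (chr9:89878612-89880482) had -93.6, -100 and -78.0 points, with 2.31% on the maternal and 94.2% on the paternal allele. In all, 18 windows with both alleles in 3 libraries reached 30 points with 1 sign in those 3 (0.0359%), and 10 of them were at the imprinted loci named here. The other 8, among them windows at Sntg1 (-47.4 points) and Tubb2b (-40.2 points), lay far from listed genes and averaged -9.38 to 8.16 points in ExE.

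Among 10 genes with secondary regions, Zdbf2, Cdkn1c and Gnas had listed windows, and Meg3 had the start window given above. Magel2, Ndn and Fkbp6 had both alleles in all libraries at their start. Their differences ran from 3.21 to 37.1 points at Magel2, from -43.7 to 3.48 at Ndn and from 13.2 to 33.7 at Fkbp6. The Ndn start window thus changed sign between libraries. Igf2, Mkrn3 and Peg12 had both alleles in 1 library at their start window.

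Of the 8 genes with non-canonical imprints, which are known from extra-embryonic tissue, Slc38a4 had a listed window, and its promoter also counts among the maternal gDMRs. The start window of Jade1 had -42.3 to 3.06 points in the epiblast and 49.5 to 80.8 in the ExE libraries. There the paternal allele was at 92.6% in epiblast and 11.3% in ExE, and the maternal allele at 75.5% and 78.1%. The start windows of Sfmbt2 and Smoc1 had 3 libraries each in the epiblast, with means of -0.56 and 3.31 points. None of 7 genes used as controls, which encode DNA methyltransferases and factors such as UHRF1 and TRIM28, had a listed window, and the start windows with all 4 libraries averaged -0.59 points at Dnmt3a and 8.07 points at Dppa3.

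The same windows were compared in ExE, whose libraries did not enter the choice. The epiblast libraries did, so that sizes in the 2 tissues are given as a description, and a larger difference in the epiblast is favoured by the choice. Of the 30, 28 had the sign of the epiblast in every ExE library, against 6.86% of all windows. Limma fitted to the ExE libraries alone called 13 of the 30, against 0.00722% of all windows tested there, 9 with the maternal and 4 with the paternal allele higher. Labels give the same replicate numbers to epiblast and ExE, but do not say that these came from the same embryo, and no pairing was used.

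The widest gaps between the tissues were at the first 2 Zdbf2 windows and at Gnas window 4. Zdbf2 window 1 averaged -88.9 points in the epiblast and -31.7 ± 28.8 in ExE (SD, n = 4), where the paternal allele was at 62.7% instead of 90.4% and the maternal allele at 31.0% instead of 1.5%. The ExE libraries had -62.8, -38.4, 6.82 and -32.6 points, so that 1 had the opposite sign. At the promoter window of Gnas furthest along, the difference was 91.5 ± 3.47 points in the epiblast and 47.6 ± 8.13 in ExE, and the maternal allele was at 92.8% and 57.0%. In the ExE libraries this window had 38.9, 55.1, 42.4 and 53.9 points. Over all tested windows the allele means of single libraries were 58.7% to 62.6% in ExE and 74.2% to 78.7% in the epiblast. A lower value in ExE is thus what windows had on average, and the part of this in the gaps was not tested. Kcnq1ot1 (93.6 ± 1.81 points in ExE), H19 window 2 (-79.5 ± 8.56) and Peg13 window 2 (86.0 ± 10.5) were within 4 points of their epiblast means.

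The epiblast minus the ExE difference was 43.9 points at this Gnas window and -57.1 points at the first Zdbf2 window. Over the 237650 windows tested, limma over the 8 libraries called 0 (0%), while 12852 had an unadjusted p under 0.05 (5.41%). At Cdkn1c, where 1 ExE library lacked an allele, the 3 others had -18.9, -12.0 and -28.2 points.

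**Figure D4:**
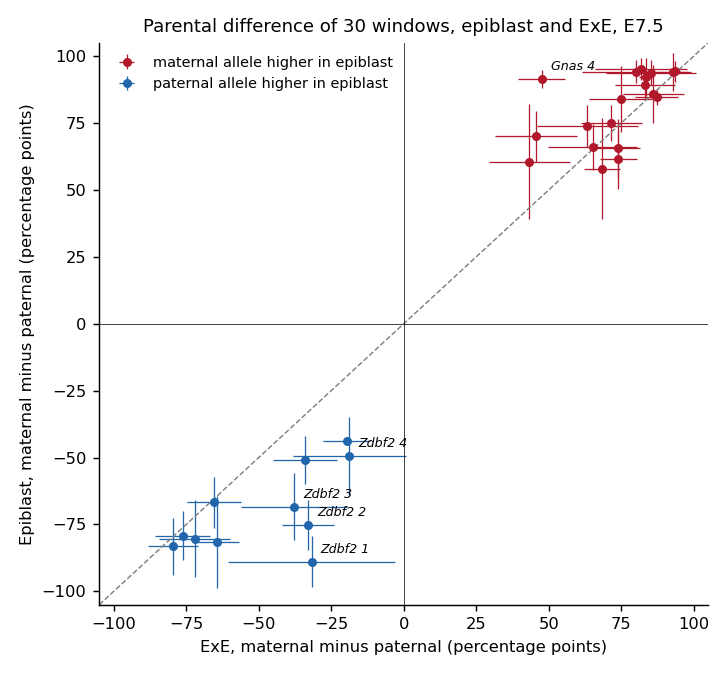
Parental difference (maternal minus paternal, percentage points) of the 30 windows in E7.5 epiblast (vertical axis) against ExE (horizontal axis), as means with SD (n = 4 libraries, 3 in ExE at Cdkn1c). The dashed line marks equal values, red windows have the maternal and blue the paternal allele higher in the epiblast, and names mark windows whose 2 means are at least 30 points apart. Zdbf2 and Gnas window 4 lie farthest from the line.

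The separation of the tissues was checked with markers. The window at the start of Elf5, a trophoblast transcription factor, was at 57.6% to 73.8% in the epiblast and 25.1% to 48.3% in ExE. Nanog and Tdgf1, genes of the pluripotent epiblast, were lower in the epiblast, with 37.4% to 45.5% against 51.6% to 62.6% and 12.6% to 34.1% against 44.3% to 60.7%. Pou5f1 went the other way in its start window, with 67.9% to 74.0% against 43.4% to 51.5%. Over all tested windows ExE was also lower, with allele means of 58.7% to 62.6% against 74.2% to 78.7%. A lower start window in ExE, as at Elf5 and Pou5f1, therefore does not by itself separate the tissues. Allele assignment was checked on the X chromosome: paternal values were present in 51.7% to 60.7% of X windows in replicate 1 of the 2 epiblast crosses and in 0.176% to 0.432% in replicate 2, while maternal values were present in 49.2% to 62.4%. ExE had the same split, with 69.9% in both replicate 1 libraries and 0.334% to 0.949% in replicate 2, so that the replicate number moved with the presence of paternal X values, and its part in the autosomal values was not tested beyond the fit with the number as a block.

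At E6.5 the epiblast was compared between embryos of matDKO and of wild-type mothers, on both alleles together, since the E6.5 table has no separate alleles. The E6.5 windows differ in their limits, so that each listed window was matched to the E6.5 window with the largest overlap and a value in all 8 libraries. This gave 12 distinct windows for maternally and 7 for paternally methylated ones. Kcnq1ot1 window 1 shared 0.864% of its bases with the E6.5 window that matched window 2, and Meg3 windows 2 and 3 also had 1 match between them, so that each was counted once, under the larger overlap. Among the distinct windows the match covered as little as 13.7% of the listed window at Mest window 2, 21.1% at Zdbf2 window 3 and 25% at Slc38a4. In the other direction, the listed window made up less than 50% of the E6.5 window in 8 of the 19, with 22.4% at Impact as the lowest, so that these hold mostly other sequence. Mest window 1, with 34.4%, is the only one of the 8 among the windows that limma called in the comparison with matDKO/CAST. Over all 192419 E6.5 windows, matDKO/CAST was lower than B6/CAST by 16.7 points on average, and limma called 23.4% of windows lower. The maternally methylated windows had a median difference of -34.4 points, and each of the 12 was below the average of all windows, by 1.57 to 39.6 points. The paternally methylated windows had a median of -3.07 points, with 3 of 7 below that average.

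The window at Airn was at 54.9%, 92.3% and 68.4% in B6/CAST and at 9.76% and 21.4% in matDKO/CAST, a difference of -56.3 points (SE 9.94, adjusted p = 0.0143, limma). The Kcnq1ot1 window was at 70.2%, 83.3% and 57.4% in B6/CAST and 33.7% and 0% in matDKO/CAST, a difference of -53.5 points (SE 12.5, adjusted p = 0.0240, limma). Limma called 4 of the 12 windows lower, adding Gnas window 2 (-42.2 points, adjusted p = 0.0219) and Mest window 1 (-34.6 points, adjusted p = 0.0187), against 23.4% of all windows. This count was 2 without B6/CAST replicate 3 or without the B6/CAST library whose number could not be matched. At Snrpn 1 matDKO/CAST library had 38.9% and the other 81.8%. H19 window 2 was at 43.4% to 66.7% in B6/CAST and at 46.2% and 52.9% in matDKO/CAST, and the Meg3 window at 60.7% to 79.4% and at 81.0% and 56.2%. Other paternally methylated windows had lower values in matDKO/CAST, with -29.4 points at Gnas window 1 (adjusted p = 0.158, limma), -23.2 at Zdbf2 window 4 (adjusted p = 0.106) and -21.4 at Cdkn1c (adjusted p = 0.0649), while Zdbf2 window 3 had 19.8 points (adjusted p = 0.246). Cdkn1c was at 21.8%, 33.3% and 42.8% in B6/CAST and at 9.38% and 13% in matDKO/CAST, and these did not overlap, as in 49.7% of all windows. None of the 7 paternally methylated windows passed limma. With B6/CAST and CAST/B6 together as the wild type, 6 of the 12 and 2 of the 7 were called lower, against 53% of all windows. After each library's mean was subtracted, limma called 0 of all windows (34665 at an unadjusted p under 0.05), with the median at -17.7 points for the maternally and 13.6 points for the paternally methylated windows.

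**Figure D5:**
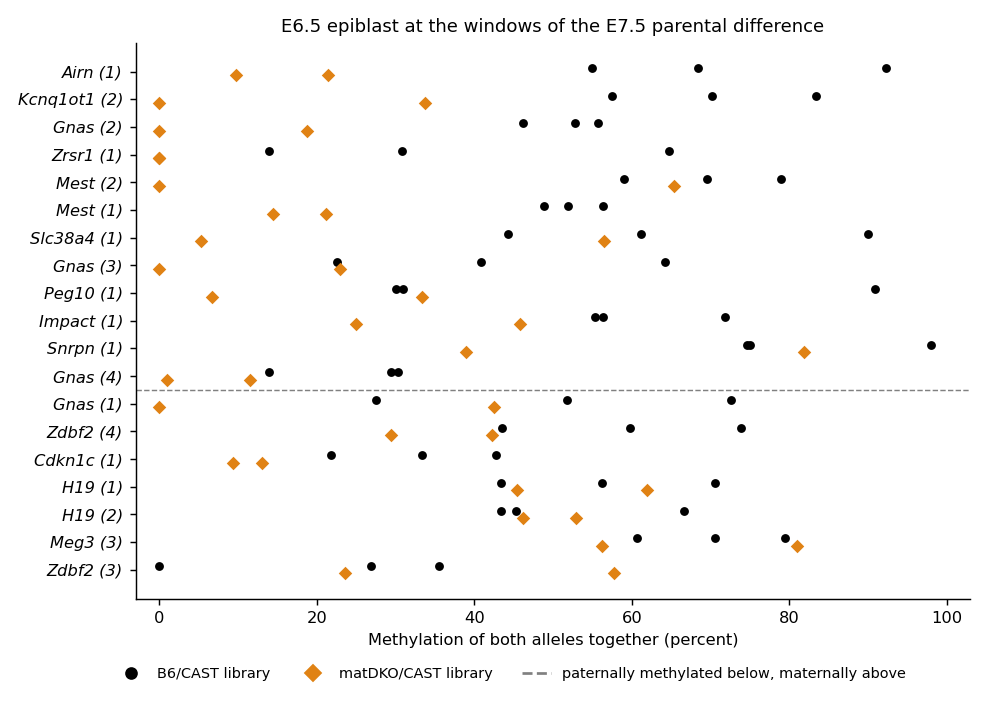
Methylation in percent of both alleles together (horizontal axis) in each E6.5 epiblast library of B6/CAST (black circles) and matDKO/CAST (orange diamonds), at the 19 E6.5 windows matched to the listed windows, with maternally methylated windows above the dashed line. The matDKO/CAST libraries lie below all B6/CAST libraries at 7 of 12 windows above the line and at 2 of 7 below it, against 49.7% of all windows.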

How the data were processed

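Methylation was measured by PBAT in 4 epiblast and 4 ExE libraries at E7.5 and in 8 epiblast libraries at E6.5. The authors trimmed reads (Trim Galore 0.4.4 at E6.5), aligned them with Bismark (0.20.0 at E6.5) to GRCm38, per the submitters' processing notes, and split them by allele with SNPsplit. The deposited values are the percent methylation of windows named as 100 CpG windows, per library and, at E7.5, per allele. The autosomal windows hold a median of 51 CpG dinucleotides of GRCm38, so that the 100 cannot be read as a count of dinucleotides. No coverage is given, so the depth of each value is unknown and no counting interval or count test was possible. Both alleles had a value in 70.3% to 81.6% of the 384346 autosomal windows in single epiblast libraries, and the within-cross SD of the parental difference had a median of 4.30 points in windows under 2 kb and 11.2 in those over 10 kb.

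Parental differences were fitted in R 4.3.3 by lmFit and eBayes at default settings (limma 3.58.1), the crosses coded with opposite signs so that the intercept follows the parent and the cross term the strain, and Benjamini-Hochberg adjustment over all windows at 0.05. The tissue fit used 8 libraries with cross and cross by tissue, and the E6.5 fit 1 mean per group. With 4 libraries from separate embryos, the fit has 2 replicates per cross. Tables were made with Python 3.11.15, pandas 2.3.3 and numpy 2.4.6. The test was also run on simulated normal values whose variances came from limma's own fit to these windows. Such values lack the bounds and the unknown depth of the percentages, so that the run cannot check the calls given here. Windows were placed on GENCODE vM21 genes. The allelic values at E7.5 rest on those reads of the unsplit libraries that cover a SNP.

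All loci with a listed window or an adjusted p under 0.05 were named by the gene they lie in or the nearest start, and every gene of the gDMR lists was accounted for. The members and gene lists were chosen with earlier results of these data known. Alternatives were the eBayes settings, a logit scale (offset 1 point), leaving out the cross term, the replicate number as a block, windows with 3 of 4 libraries, other minimum sizes, joining within 10 kb, and leaving out each replicate. For 1 E6.5 B6/CAST library the number in the table matched no title, and it entered only as a member of its group.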

Additional observations from a re-analysis of the deposited data

Results flagged for a closer look

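Single libraries stood apart from the other 3 in 5 of the 61 sets of 4 values examined, where chance flags about 1 in 20, and all 5 were B6/CAST replicate 2. In the epiblast its parental difference was 65 points at Peg3 window 1, with 77.6 to 79.7 in the others, 80.7 points at Peg3 window 2 (92.0 to 92.1), and 65.7 points at Impact (88.5 to 92.0). In ExE it was 58.4 points at Gnas window 3, with 86.6 to 92.3 in the others, and 96.3 points at Kcnq1ot1 window 1, with 92.6 to 92.7.

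At 2 windows far from listed genes every epiblast library moved one way and every ExE library the other. The epiblast minus ExE difference was 40.8 points at Akr1c13 and -38.6 points at 2010110K18Rik, given as a description. Both windows had been chosen for at least 20 points in every epiblast library, which favours a gap. Of all windows, 5.92% had every ExE library opposite in sign to the epiblast mean.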

How the results depend on the processing

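The 20 windows of the parental test were 22 without the cross term (19 shared) and 20 when limited to windows under 10 kb or to mean differences of at least 20 points. The count was 12 on the logit scale, all shared, and 0 with the trend and robust settings, with both alleles required in 3 of 4 libraries (13708 of 288653 at an unadjusted p under 0.05), and in each fit with 1 replicate left out (range 0 to 0). With the replicate block it was 17, 16 of them shared, and Gnas window 1 passed (adjusted p = 0.0323, limma). The deviations of same-numbered libraries had correlations of -0.00119, 0.00396 and 0.0108, below the 0.1 used here to call samples paired. The number did go with the presence of paternal X values, in both crosses and both tissues.

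The 30 listed windows became 50 at 20 points, 26 at 40 points, 48 when 3 of 4 libraries sufficed, and 32 to 53 with 1 replicate left out, 53 without B6/CAST replicate 1. The mean parental difference reversed to 0.100 without CAST/B6 replicate 1 and to 0.0784 without CAST/B6 replicate 2 (range -0.262 to 0.100). The count of windows that differed between tissues was 0 in every setting, the replicate block included.

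At E6.5 the 4 maternally methylated windows called lower were 0 after each library's mean was subtracted and 0 with the replicate block, in which limma called none of all windows (49460 at an unadjusted p under 0.05). The block fit also lacked the B6/CAST library with no matched number, whose loss alone gave 2, so that the block was not tried by itself. The count was 2 to 5 with 1 replicate left out. The median of the maternally methylated windows was -17.7 points after each library's mean was subtracted. For the paternally methylated windows the count was 2 with both crosses as wild type, in which 53% of all windows were called lower, and 0 to 2 with 1 replicate left out, and the median was 13.6 points after subtraction. The cause of these shifts was not tested. With no coverage, a single library's value cannot be weighed by its depth.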
